A study of Homo sapiens with 8 samples.

Results

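The USP11 promoter window is 1 of 19957 promoter windows in which sequencing reads were counted in RPE1 cells, an immortalised human line of retinal pigment epithelial origin. The window (Ensembl ENSG00000102226) spans 47231689 to 47233689 on chromosome X, plus strand, in the hg38 build. It was chosen by name, after earlier results of these data had placed it among the windows with the most pulled-down reads relative to input. Its pull-down values are therefore given as a description, with no test. OGAP-seq is the pull-down with which the series measures oxidative DNA damage along the genome. The 4 groups hold 2 libraries each: OGAP and input DNA from wild-type cells without doxycycline (WT), and OGAP and input DNA from cells after doxycycline with depletion of NuMA (TDIF), a nuclear and spindle-pole protein (KD). All 8 libraries come from the same line, and doxycycline and depletion cannot be told apart. The labels do not say how doxycycline brings about the depletion, nor whether the cells are 1 clone. The labels do not say whether replicate libraries were grown as separate cultures, so that errors and p-values measure only how these libraries differ, which can be technical. The labelled cell type cannot be checked from these counts, because they are of DNA and not of RNA.

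USP11 encodes a ubiquitin-specific protease, an enzyme that removes ubiquitin from other proteins. It is a close relative of USP4 and USP15, and it is known for acting on PALB2, the protein that joins BRCA1 to BRCA2 in homologous recombination, opposite a ligase built from KEAP1 and CUL3. Guanine is the base most easily oxidised in DNA, and runs of guanine are its most reactive sites.

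Of the window, RefSeq (GRCh38.p14) gives the sequence next to the gene start. The USP11 gene spans 47233009 to 47248328 in that annotation (15320 bp), so that its start lies 320 bp downstream of the centre of the window. The last 681 bp of the window lie inside the gene and the rest before it. The 250 bases before the start are shown because this window carried the highest nuclear pull-down count. They lie at chrX:47232759-47233008 on the plus strand, with runs of 3 or more G or 3 or more C in capitals.
USP11 promoter: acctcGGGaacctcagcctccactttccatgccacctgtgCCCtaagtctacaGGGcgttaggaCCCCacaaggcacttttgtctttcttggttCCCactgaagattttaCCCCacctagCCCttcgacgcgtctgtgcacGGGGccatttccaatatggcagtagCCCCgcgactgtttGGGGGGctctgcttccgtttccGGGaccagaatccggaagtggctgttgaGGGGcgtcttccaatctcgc
The stretch holds 12 such runs, 6 of G and 6 of C, the longest of them 6 G. Its composition was close to that of the median promoter. Over the 300 bases that RefSeq gives for each of 34794 promoters, with 50 bases after the start included, 58.3% of the USP11 bases were G or C, against a median of 58.7%. It held 12 runs against a median of 13, and 20 CG dinucleotides against a median of 14. A longest run of 6 or more was found in 18.8% of promoters. The letters CCGGAAGT, the motif of ETS transcription factors, searched on both strands, begin 37 bases before the start on the plus strand, and 4.13% of promoters held them. These letters describe 300 of the 2001 bp of the window, and the counts do not say where within the window the reads lay. Repeats in the window, and how uniquely its reads could be mapped, were not analysed here.

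The 8 libraries held 368593 to 771138 promoter reads, and their median windows held 17 to 38 reads. Of all windows, 17130 passed a filter on low counts and were fitted together. The USP11 window was among them and overlaps no other window, so that no read had to be shared with a neighbouring gene.

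By the deposited counts, USP11 was the most-read nuclear window in each of the 4 OGAP libraries. It was an ordinary to moderately high window in the 4 inputs. The counts of the WT OGAP libraries were 1338 and 1052 reads, and those of the KD OGAP libraries 990 and 761. The WT inputs had 77 and 55 reads here and the KD inputs 39 and 49. The lowest OGAP count was thus far above the highest input count, although the input libraries were deeper. As counts per 1000000 promoter reads (CPM), the WT OGAP libraries stood at 3630 and 2649, and the KD OGAP libraries at 1767 and 1692. The inputs stood at 106 and 71.3 CPM in WT and 57.1 and 75.9 CPM in KD. All 4 OGAP libraries lay above all 4 inputs, an arrangement that 9.12% of the tested windows had.

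The share of promoter reads that fell in this window differed between the WT OGAP libraries by more than counting error. It was 0.363% in the first (95% exact binomial interval 0.344 to 0.383%) and 0.265% in the second (0.249 to 0.281%). In KD OGAP the intervals overlapped, at 0.177% (0.166 to 0.188%) and 0.169% (0.157 to 0.182%). These intervals cover counting error only, since reads without molecular identifiers need not be independent molecules. The group means were 3139 ± 694 CPM in WT OGAP (SD, n = 2) and 1730 ± 53.4 CPM in KD OGAP. In the inputs they were 88.6 ± 24.4 CPM in WT and 66.5 ± 13.4 CPM in KD.

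**Figure D1:**
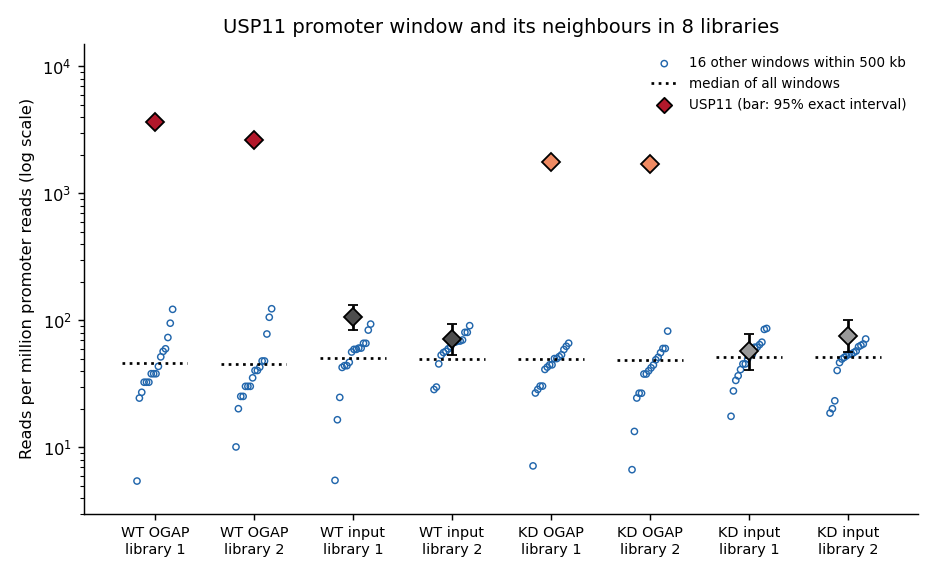
CPM (log axis) of the USP11 window in each of the 8 libraries (diamonds, bars are 95% exact binomial intervals), with the 16 other windows within 500 kb (open circles) and the median of all windows (dotted line). The OGAP diamonds lie between 1692 and 3630 CPM, far above the neighbours, and the input diamonds between 57.1 and 106 CPM, near or among them.

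Ranked by reads among all 19957 windows, USP11 was 4th in the first WT OGAP library and 5th in each of the other OGAP libraries. All windows above it were mitochondrial. The next nuclear window was EXOC8, the gene of an exocyst subunit, in every OGAP library. The reads of USP11 were 1.61 and 1.52 times those of EXOC8 in the WT OGAP libraries, and 1.44 and 1.45 times in those of KD. The EXOC8 window overlaps another window, unlike that of USP11, and how reads in overlaps were counted is not stated. These ratios, and the place of USP11 above EXOC8, are thus uncertain. EXOC8 held 13 to 42 reads in the inputs, where the median windows held 33 to 38. Whether its counts are too low because of the overlap was not tested. In the inputs the place of USP11 was not fixed. USP11 ranked 363 and 4401 in WT input, and 7757 and 2711 in KD input, so that 58.8% to 98.0% of windows held fewer reads. Set against the median window of its library, the USP11 count was 78.7 and 58.4 times as large in WT OGAP, but 35.4 and 34.6 times as large in KD OGAP. The same ratio was 2.08 and 1.45 for the WT inputs and 1.11 and 1.48 for the KD inputs.

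OGAP over input asks which promoters take a larger share of the pull-down than of unselected DNA. In the edgeR fit over all windows, USP11 was higher in OGAP by 5.23 ± 0.22 (log2 change ± SE) in WT and by 4.74 ± 0.23 in KD. In mean CPM these were 35.5-fold and 26.0-fold. Taking each OGAP library against each input library of its state, the ratio of CPM ran from 25.0 to 50.9 in WT and from 22.3 to 31.0 in KD. The WT and KD ranges overlapped. Windows past the threshold (edgeR, Benjamini-Hochberg adjusted p under 0.05) as higher in OGAP made up 9.25% of those tested in WT and 0.63% in KD. USP11 was among those chosen by these values, so nothing is read from its own place. By size of the log2 change it stood 2nd of 17130 in both states, behind EXOC8 at 5.78 ± 0.27 and 5.96 ± 0.29. Next below it were NUTM1 at 4.97 ± 1.27 in WT and HSCB at 3.69 in KD. NUTM1 held 11 and 9 OGAP reads against 1 and 0 input reads in WT, a change that rests on few reads. In windows at or above the median abundance, the change next below USP11 was 3.51 in WT, for ENSG00000281331, and 2.36 in KD, for DBF4B, a gene of an activator of the CDC7 kinase.

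**Figure D2:**
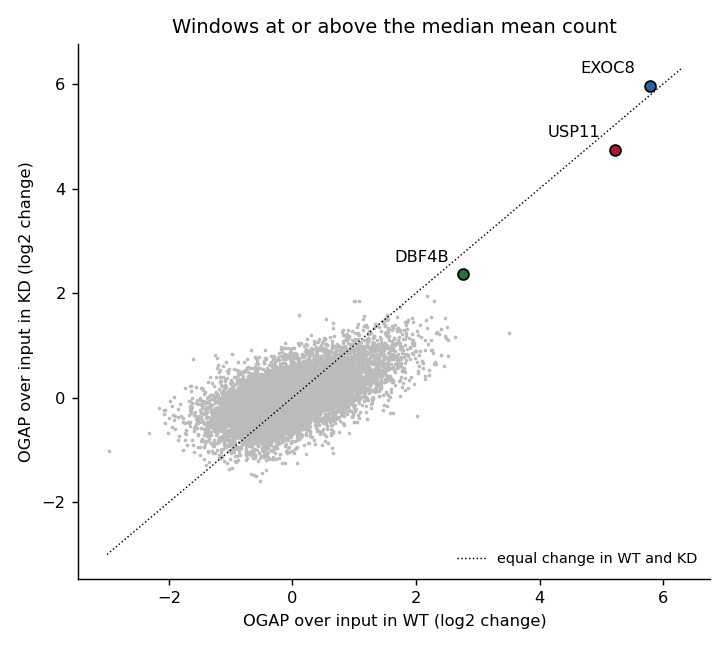
Log2 change of OGAP over input in WT (horizontal) against that in KD (vertical) for windows at or above the median mean count, each a grey point, with an equal-change line (dotted). USP11 (5.23 and 4.74) and EXOC8 (5.78 and 5.96) stand far from the cloud of other windows in both states, with DBF4B (2.76 and 2.36) between.

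KD against WT within OGAP asks whether the share of the pull-down changed on depletion. USP11 was lower in KD, with both KD libraries (1767 and 1692 CPM) below both WT libraries (3630 and 2649 CPM), as was so for 17.7% of tested windows. The log2 change was -0.91 ± 0.18, and the mean level was 1.82 times as high in WT OGAP as in KD OGAP. Its size turned on the WT OGAP libraries, at -0.66 without the first and -1.12 without the second. This comparison uses the WT OGAP libraries in which USP11 stood out, so it is not independent of the choice and no p is given. Across all windows, 0.035% passed the threshold in either direction. EXOC8, with the next highest nuclear counts, was at -0.79 ± 0.20 and DBF4B at -0.32 ± 0.24.

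KD against WT within input serves as the control for copy number and for how the DNA fragmented. For USP11 the log2 change was -0.43 ± 0.25. A test was planned here, but the inputs were the denominators of the values that drew attention to USP11, so this value too is a description with no p. Both KD inputs in reads (39 and 49) lay below both WT inputs (77 and 55). In CPM the groups overlapped, because the second KD input (75.9) lay above the second WT input (71.3). With WT input replicate 2 left out the value was -0.68, and with WT input replicate 1 left out -0.13. No window passed in this comparison (0.0%, edgeR), with 756 at an unadjusted p under 0.05, and DESeq2 also called 0. Taking the input into account, the KD effect on OGAP over input was -0.48 ± 0.31 for USP11, and lay between -0.78 (WT input replicate 1 left out) and -0.24 (WT OGAP replicate 1 left out). It is likewise a description. Within input, KD against WT was -0.97 ± 0.37 for EXOC8 and 0.08 ± 0.28 for DBF4B. Their KD effects on OGAP over input were 0.18 ± 0.41 and -0.41 ± 0.37. For EXOC8 this value rests on inputs of 42 and 15 reads in WT and 13 and 13 in KD. Its SE exceeds the change, so neither an absent effect nor a difference from USP11 is read from it.

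The windows around USP11 all held far fewer pull-down reads. This is a description, since in each OGAP library USP11 was the most-read nuclear window. Within 500 kb of its centre lie 16 other windows, 8 on each side, which were picked by position and so could be tested. The nearest upstream is CDK16, a cyclin-dependent kinase gene 14.8 kb away, and the nearest downstream ZNF157, a zinc finger gene 138 kb away. In WT OGAP the 16 windows held 2 to 45 reads (median 14) in the first library and 4 to 49 (median 15) in the second. In KD OGAP they held 4 to 37 (median 25) and 3 to 37 (median 18.5). The highest of them thus stayed far below the 761 to 1338 reads of USP11. The ratio of USP11 to the neighbours' median was 95.6 and 70.1 in the WT OGAP libraries, and 39.6 and 41.1 in those of KD. In the inputs this ratio was 1.83 and 1.1 in WT and 1.1 and 1.42 in KD. The reads of USP11 divided by the neighbours' summed reads, a ratio that needs no scaling between libraries, were 4.16 ± 0.78 in WT OGAP (SD, n = 2) and 2.57 ± 0.004 in KD OGAP. In the inputs it was 0.100 ± 0.039 in WT and 0.083 ± 0.020 in KD. An SD of 2 values is itself uncertain, and the 0.004 of KD OGAP is not read as precision.

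Among these 16 neighbours, 2 were higher and 2 lower in OGAP than in input in WT, against 13.7% of all windows called in either direction. The higher ones were RGN, which encodes the calcium-binding protein regucalcin, and ZNF157, and the lower ones SYN1, the synapsin I gene, and ELK1, the gene of an ETS transcription factor. ELK1 lies outside the rule for named windows and is named because so few passed. For RGN the WT OGAP counts were 45 and 42 reads and the WT input counts 31 and 62 (0.95 ± 0.32, adjusted p = 0.0356, edgeR). ZNF157 held 27 and 49 against 32 and 41 (1.10 ± 0.34, adjusted p = 0.0215). Both were small beside USP11. SYN1 was at -1.20 ± 0.41 and ELK1 at -1.41 ± 0.41. The median of the 16 was -0.44, where that of all windows was -0.02. DESeq2 called 0 of the 16. With WT OGAP replicate 2 left out, 0 of the 16 passed in edgeR, and with WT input replicate 1 left out, 1 did. With WT OGAP replicate 1 or WT input replicate 2 left out, 2 passed. RGN kept its call only with both WT OGAP libraries and WT input replicate 1 present, and ZNF157 only with WT OGAP replicate 2 and both WT inputs. SYN1 needed both WT OGAP libraries and WT input replicate 2, and ELK1 needed WT OGAP replicate 2 and WT input replicate 1. With each library left out in turn, RGN lay between 0.56 and 1.49, ZNF157 between 0.66 and 1.41, SYN1 between -1.42 and -0.96 and ELK1 between -1.61 and -1.19.

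The remaining neighbours within the naming rule were not past the threshold in WT. CDK16 was at -0.59 ± 0.43 and UBA1, the gene of the main ubiquitin-activating enzyme, at -0.17 ± 0.39. NDUFB11, a respiratory complex I gene, was at -0.37 ± 0.65 and RBM10, a splicing regulator gene, at -0.07 ± 0.74, in windows that overlap each other. JADE3 was at -0.48 ± 0.44. On the other side ZNF41 was at -0.41 ± 0.38, the kinase gene ARAF at -0.74 ± 0.38, the metalloproteinase inhibitor gene TIMP1 at -0.58 ± 0.39 and CFP, the properdin gene, at 0.40 ± 0.34. In KD no neighbour passed for OGAP over input, against 0.736% of all windows, with values between -0.88 and 0.63 and 1 at an unadjusted p under 0.05. DESeq2 gave none of the 16 an adjusted p there. KD against WT within OGAP gave 0 of 16 by edgeR, against 0.035% of all windows, and 0 by DESeq2, which called 0 of all windows. In edgeR 2 of the 16 and 1808 of all 17130 windows had an unadjusted p under 0.05. The 16 had a range from -0.94 for RGN to 0.63 for SYN1. In input KD against WT gave 0 of 16 by both tools, as over all windows, with 1 of the 16 at an unadjusted p under 0.05 in edgeR. The KD effect on OGAP over input gave 0 of 16 by both tools and 0 at an unadjusted p under 0.05 by edgeR, against 0.00584% of all windows called.

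**Figure D3:**
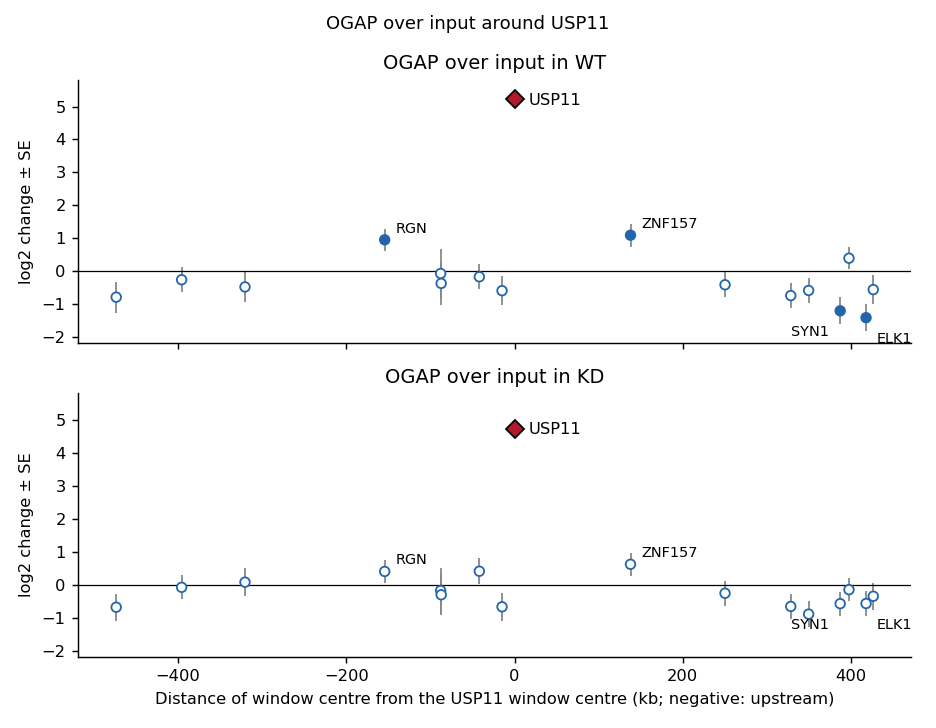
Log2 change of OGAP over input (± SE) of USP11 (diamond) and the 16 other windows within 500 kb (circles, filled where the edgeR adjusted p is under 0.05) by distance of the window centre in kb, in WT (top) and KD (bottom). USP11 is at 5.23 and 4.74, while the neighbours lie between -1.41 and 1.10 in WT and between -0.88 and 0.63 in KD.

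The windows most like USP11 over the 8 libraries were looked for by their distance in log2 CPM after each was centred on its inputs, among 13868 named windows. EXOC8 was by far the nearest, at a distance of 1.84, where the median window was at 10.1. Its WT OGAP libraries had 832 and 694 reads and its KD OGAP libraries 688 and 525. Its WT inputs had 42 and 15 and its KD inputs 13 and 13. The EXOC8 window overlaps another window. DBF4B followed at 5.09, with 179 and 221 reads in the WT OGAP libraries, 151 and 270 in those of KD and 56 to 63 in the inputs. In DBF4B the first KD OGAP library lay below both WT ones and the second above both. The others were HAGH, a glyoxalase gene (5.13), NUTM1 (5.43) and TIFA (5.45). These held few reads, at most 19, 11 and 21 in any library, so that their closeness rests on small counts. Like EXOC8, all of them overlap another window, as 18.7% of all windows do.

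By the shape of the profile alone, regardless of its size, Pearson's r with USP11 over the same 8 libraries was highest for EXOC8 (0.996). The others among 7118 named windows at or above the median abundance were the tubulin gene TUBB1 (0.993), the chemokine gene CCL26 (0.990), the nucleolar protein gene NOP58 (0.989) and the ceramidase gene ACER1 (0.988). The libraries of a group share their kind of DNA, and the r is given as a description. For TUBB1 both WT OGAP libraries had 39 reads and the WT inputs 41 and 42, a log2 change of 0.95 ± 0.32, so that a like shape did not mean a like size.

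The windows of other ubiquitin-specific protease genes serve as background. The largest log2 change of OGAP over input among those named and tested was 2.73 in WT and 0.78 in KD. USP11 was chosen by such values, so nothing is read from its place above these other windows. Their genes were taken as all those named USP with a number, which gave 68 other windows, of which 25 belong to the USP17L multicopy genes, whose near-identical copies can share reads and are uncertain. The low-count filter kept 47 of the 68, and 39 of the 43 outside USP17L. USP6NL, which shares the name but is not a protease, is among them. In WT 3 of the 47 were higher in OGAP than in input and 3 lower, against 9.25% and 4.45% of all windows. The median was -0.10, against -0.02 over all windows.

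The higher ones were USP30, of the outer mitochondrial membrane, at 2.73 ± 0.40, USP50 at 1.24 ± 0.37 and USP18, which removes the ubiquitin-like protein ISG15, at 1.17 ± 0.35. The USP30 window, which overlaps another, had 43 and 38 reads in its WT OGAP libraries and 13 and 12 in the WT inputs. USP9X, like USP11 on chromosome X, was lower, with 5 and 10 OGAP reads against 36 and 76 input reads in WT (-1.84 ± 0.45, adjusted p = 0.003, edgeR). USP31 (-1.65 ± 0.51) and USP25 (-1.58 ± 0.47) were lower too. The other tested USP windows on chromosome X, USP27X and USP26, lie outside the rule for named windows. They were at -0.75 ± 0.38 and 0.46 ± 0.46 in WT and did not pass. With WT OGAP replicate 2 left out, 2 passed in place of 6, of 49 that the filter then kept. With WT input replicate 1 left out 3 of 47 passed, and with WT input replicate 2 left out 2 of 47. With WT OGAP replicate 1 left out 4 of 49 passed. DESeq2 called USP30 and USP9X alone. USP30 passed in edgeR whichever library was left out, at 2.57 to 2.86. USP31 was at -4.33 with WT OGAP replicate 1 left out and at -0.74, not past the threshold, with WT OGAP replicate 2 left out; it also missed it with WT input replicate 2 left out. USP9X missed it with WT OGAP replicate 1 or WT input replicate 2 left out. USP18 missed it with WT OGAP replicate 2 or either WT input left out, USP25 with either WT OGAP library or WT input replicate 1 left out, and USP50 with any WT library left out. The left-out values were 1.09 to 1.24 for USP18, -1.75 to -1.41 for USP25, 1.16 to 1.31 for USP50 and -2.36 to -1.25 for USP9X.

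USP15, the close relative of USP11, had 10 and 13 OGAP reads against 44 and 30 input reads in WT and was at -0.64 ± 0.46 (adjusted p = 0.365, edgeR). No window was named for USP4. In KD 0 of the 47 passed for OGAP over input by edgeR, against 0.736% of all windows, with values from -1.12 to 0.78. An unadjusted p under 0.05 was found for 5 of the 47 and for 2162 of all 17130 windows. DESeq2 gave an adjusted p to 5 of the 47 there and called 0 of these. KD against WT gave 0 of the 47 by both tools, against 0.035% of all windows in OGAP and 0.0% in input by edgeR. The unadjusted p was under 0.05 for 6 of the 47 in OGAP and 1 in input, and for 1808 and 756 of all windows. The KD effect on OGAP over input gave 0 by both tools, against 0.00584% of all windows by edgeR, with 4 of the 47 and 1395 of all windows at an unadjusted p under 0.05.

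**Figure D4:**
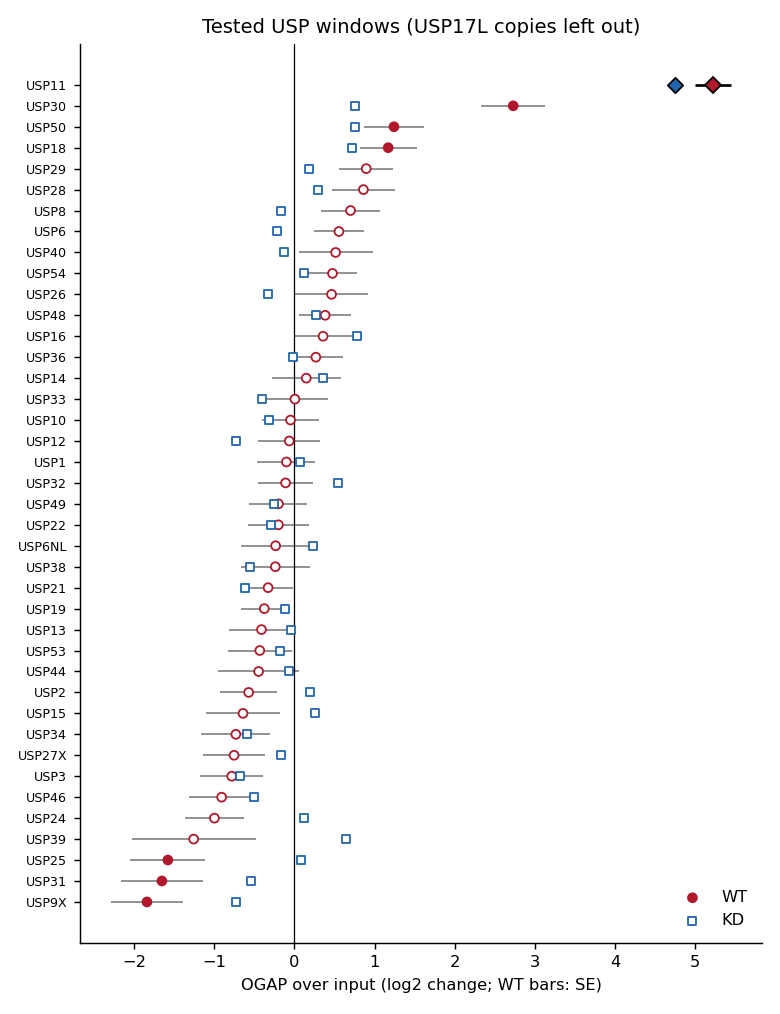
Log2 change of OGAP over input for the 39 tested USP windows outside USP17L and for USP11 (top), in WT (circles, bars are SE, filled where the edgeR adjusted p is under 0.05) and in KD (squares). USP11 is at 5.23 in WT and 4.74 in KD, and the next window, USP30, at 2.73 in WT.

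Of the genes around PALB2, the windows of PALB2, BRCA1 and BRCA2 held few reads. PALB2 itself held 0 to 7 reads in each library and did not pass the filter. BRCA1 had 15 and 14 OGAP reads against 5 and 2 input reads in WT (3.04 ± 0.80, adjusted p = 0.006, edgeR), and 6 and 4 against 2 and 3 in KD. BRCA2 held 9 and 14 against 4 and 1 in WT (3.16 ± 0.91, adjusted p = 0.011). Over all windows, 9.25% passed as higher in OGAP in WT. The windows of PALB2, BRCA1 and BRCA2 overlap other windows, and their counts are uncertain. BRCA1 did not pass with WT OGAP replicate 1 or WT input replicate 2 left out (2.51 to 3.81 over all libraries left out in turn), nor BRCA2 with either second WT library left out (2.48 to 4.36). KEAP1 held 38 to 48 reads in the OGAP libraries and 25 to 52 in the inputs, and was at 0.84 ± 0.32 in WT (adjusted p = 0.063) and CUL3 at -0.55 ± 0.41 (adjusted p = 0.385). For OGAP over input in KD, BRCA1 was at 1.38 ± 1.01, BRCA2 at 3.25 ± 1.13, KEAP1 at 1.21 ± 0.33 and CUL3 at -0.97 ± 0.37. None of these 4 tested genes passed there, against 0.736% of all windows by edgeR. None passed for KD against WT either, against 0.035% of all windows in OGAP and 0.0% in input. The counts are of DNA in the pull-down, and say nothing of how much of any of these genes is expressed.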

How the data were processed

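Reads per promoter window were analysed in 8 libraries. The deposited counts are whole reads per window of 2001 bp. Per the submitters' processing notes, reads were processed with featureCounts, bedtools, MACS2 and BWA 0.7.17-r1188 on hg38; their roles and options are not stated in those notes. The deposited coverage profiles, summed over genes, were not used. All value columns were mapped to samples by name. A window took the symbol of a protein-coding RefSeq gene if that gene alone, on its strand, started no more than 500 bp from the window's centre (81.1% of windows, against 1.11% after a shift of 200000 bp). Genes of unknown strand in the RefSeq tables were tried at both ends.

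Counts were fitted with edgeR 4.0.16 in R 4.3.3 (TMM, filterByExpr, quasi-likelihood, 4 group means), with Benjamini-Hochberg adjustment over all 17130 windows of a comparison and a threshold of 0.05. The SE is the log2 change over the root of F. The spread of each window is drawn strongly to that of all windows (98.4 prior against 4 residual degrees of freedom). DESeq2 1.42.0 was an alternative. The fit was tested on simulated data with 200 changed windows, drawn from those at or above the median mean count, with 1 shared spread. For OGAP over input in WT, 23% of 2-fold and 89% of 4-fold changes among 16956 windows were recovered. For KD against WT in input the shares were 20% and 95% among 16949 windows. Recovery in windows of lower counts was not tested. The window and the lists were chosen with earlier results of these data known. Named windows are USP11, the 6 nearest on each side, USP4, USP15, PALB2, BRCA1, BRCA2, KEAP1, CUL3, the 3 highest and 3 lowest USP windows in WT, and the 5 most alike by distance and by r.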

Additional observations from a re-analysis of the deposited data

How the results depend on the processing

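The log2 changes of USP11 kept their sign in all 5 comparisons under each alternative. Across scaling by DESeq2 size factors or upper quartile, no count filter, the DESeq2 test, a fit without mitochondrial windows (chosen after seeing the data) and the replicate block, USP11 was at 5.16 to 5.22 for OGAP over input in WT, 4.69 to 4.74 in KD, -0.94 to -0.86 for KD against WT in OGAP, -0.43 to -0.39 in input and -0.52 to -0.47 for the KD effect on OGAP over input. Leaving out each library in turn, where the lone library left in a group is assumed to vary like the others, gave 4.97 to 5.51, 4.54 to 4.95, -1.12 to -0.66, -0.68 to -0.13 and -0.78 to -0.24. The replicate block gave 5.22, 4.74, -0.90, -0.41 and -0.49 and moved no count of called neighbours or USP windows by over 1.5 times. Deviations of same-numbered libraries correlated at -0.05 to 0.03. The labels do not say whether such libraries were made together, and with counts this low the correlation cannot settle it. For OGAP over input in WT, DESeq2 called 0 neighbours and 2 USP windows, 2 neighbours passed within 250 kb, and leaving out a library gave 0 to 4 neighbours and 2 to 6 USP windows. The cause was not tested. Among windows that overlap no other, USP11 ranked 1 in each OGAP library, since the mitochondrial windows above it overlap one another. The depth of the inputs, 39 to 77 reads in this window, limits every ratio to input.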

Other observations

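The other windows of chromosome X serve as background, since USP11 was chosen for a level that hardly any other window reached. Of 706 other chromosome X windows tested, 46 were higher and 31 lower in OGAP than in input in WT (edgeR, adjusted p under 0.05), where 9.25% and 4.45% of all 17130 windows were. Their median log2 change was -0.09, against -0.02 over all windows. In KD 2 were higher and 2 lower, where 0.736% of all windows passed in either direction, with a median of -0.13 against 0.03 over all windows. USP11 ranked 1 among chromosome X windows by reads in each OGAP library, and 2 and 93 in WT input and 232 and 66 in KD input.

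The USP11 promoter sequence held no long stretch in common with those windows of most alike pattern that were compared. Over the 300 bases that RefSeq gives for each promoter, the longest exact stretch shared with USP11 on either strand was 8 bases for EXOC8 and 8 for DBF4B. It was 9 for TUBB1 and CCL26 and 8 for HAGH, NUTM1, TIFA and ACER1, and NOP58 was not compared. A shared stretch of 8 or more was found for 92.8% of 34793 other promoters, and of 9 or more for 49.8%. The longest for any was 16. This compares only the bases next to the gene starts, not the whole windows.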
